A study of Mus musculus with 12 samples.

Results

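Colony-stimulating factors are secreted proteins that keep myeloid cells alive and direct their growth and differentiation. This family was taken as 10 genes, selected by gene name on the arrays with every probe they have: the ligands Csf1, Il34 and Csf2, the receptor tyrosine kinases Csf1r, Flt3 and Kit, and the cytokine receptor chains Csf2ra, Csf2rb, Csf2rb2 and Csf3r. They carried 18 of the 39429 probes. A probe was kept if 3 or more of the 6 tumor arrays, or of the 6 normal arrays, had it well above background. This held for 15 probes and left 9 of the 10 genes among the 16400 genes tested. Csf2 was the gene without a kept probe.

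M-CSF (Csf1) and IL-34 both bind the CSF1 receptor, on which the survival of most tissue macrophages depends. GM-CSF (Csf2) binds an alpha chain (Csf2ra) that pairs with the common beta chain (Csf2rb), also used by the IL-3 and IL-5 receptors, and signals through JAK2 and STAT5. Mice carry a second beta chain, Csf2rb2, that serves IL-3, and in mouse models of pancreatic cancer the tumor cells are a known source of GM-CSF.

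Messenger RNA was measured in macrophages sorted from pancreas tumor tissue and from normal pancreas, on 6 single-colour arrays each. Both groups came from female C57/B6 mice aged 4 to 5 months with no genotype given. The study text speaks of implanted tumors in one place and of wild-type, KPC and FLT3-CRE/LSL-YFP mice in another, and does not tie a sample to any of these mice. KPC is a mouse model of pancreatic ductal adenocarcinoma, and FLT3-CRE/LSL-YFP is a reporter that marks cells with a history of Flt3-driven Cre. In each group 1 sample name stood on 2 arrays, tumor replicates 4 and 6 and normal replicates 2 and 3. These pairs were averaged, which left 5 tumor and 5 normal samples, given below in the order of their replicate numbers. Nothing in the labels says that each sample is another animal, and the p-values below rest on the variation among these samples, part of which may be technical.

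The macrophage label was read beside 16 identity genes such as Adgre1, Cd68 and C1qa. All 16 were tested between the groups and 0 passed the threshold, with 3 at an unadjusted p under 0.05. For these 3 the log2 difference, tumor minus normal, was -1.77 (Cd163), -0.80 (Adgre1) and 0.54 (Fcgr3). It was above 0 for 7 of 16. Such a comparison does not show whether the cells are macrophages. The summed signal of the identity genes was 756 to 1000 times an array's 75th percentile signal in tumor samples and 616 to 1160 times in normal samples. Signals of other cells differed between the groups, and the acinar signal was not a trace. It exceeded the summed identity signal in every normal sample except replicate 6. Summed signal of 14 acinar enzyme genes was 6.54 to 227 in tumor samples and 444 to 4420 in normal samples, with 12 of 14 past the threshold and lower in tumor. The 7 islet genes summed to 4.31 to 7.8 in tumor samples and 14.1 to 447 in normal samples, with 0 of 5 tested past the threshold and 4 at an unadjusted p under 0.05. Normal replicates 2 and 3 also stood apart in brightness, with 75th percentile signals of 398.6 and 430.3, against 863.9 to 1564 on the other 10 arrays. Sorted bulk RNA cannot tell fewer cells of a type from less RNA per cell.

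Levels below are log2 signals relative to the 75th percentile of the same array, and each difference is tumor minus normal. The common beta chain of the GM-CSF receptor, Csf2rb, was higher in tumor macrophages, by 1.51 log2 units or 2.84-fold. It was the family member that passed the threshold, an adjusted p under 0.05 in limma over all genes. That call rests on its main probe, which closely resembles the main probe of the sister chain Csf2rb2 and is uncertain as to gene. Csf2rb2 had a difference of 1.27 and missed that threshold with its main probe. The second probes have no such match. Over all probes in limma, Csf2rb missed the threshold on its second probe (adjusted p = 0.0542) and Csf2rb2 passed (adjusted p = 0.0386). The CSF1 receptor and the GM-CSF receptor alpha chain had differences of -0.36 and 0.36 whose intervals include 0, and neither CSF1-receptor ligand separated the groups. Of the 9 members tested, 1 passed, against 0.854% of all genes, 0.341% as higher and 0.512% as lower. At an unadjusted p under 0.05 stood 2 of 9, both higher, against 6.67% of all genes higher at that level. The groups did not overlap for 1 of 9 members, against 1.76% of all genes with every tumor sample above every normal sample. A difference above 0 was seen for 7 of 9 members, against 49.6% of all genes, and the median difference was 0.45 over the members and -0.005 over all genes tested. The members were chosen with earlier results of these data known, so these counts are description and not a test.

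**Figure D1:**
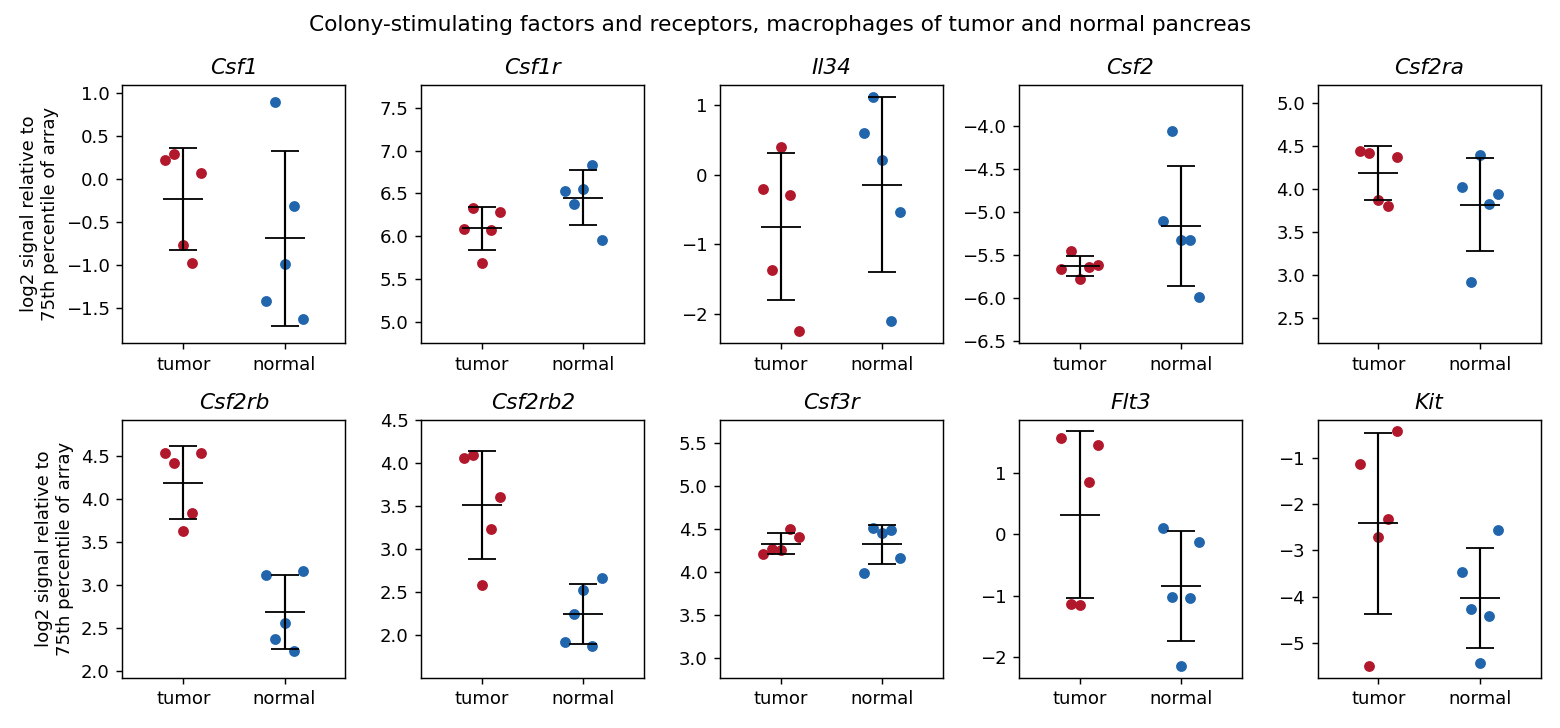
Log2 signal relative to the 75th percentile of the array (vertical axis, with its own range in each panel) for the 10 genes, with 1 point per sample, 5 tumor samples in red and 5 normal samples in blue. Bars show mean and SD. The groups are apart for Csf2rb (3.62 to 4.53 in tumor, 2.23 to 3.16 in normal), Csf2 was not well above background on any of the 12 arrays, and Kit was so on 5 tumor arrays and 1 normal array.

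Csf1, which encodes M-CSF, was measured by a probe for NM_007778 at chr3:107544333-107544392 (mm9, minus strand), spotted 10 times on each array. The tumor samples had 0.22, 0.29, -0.77, -0.98 and 0.07, against -1.41, 0.90, -0.99, -0.32 and -1.63 in the normal samples. The groups overlapped, and the highest value of all was that of normal replicates 2 and 3. The difference was 0.45 (SE 0.48, 95% interval -0.61 to 1.52, adjusted p = 0.724). Without normal replicates 2 and 3 it was 0.85 (adjusted p = 0.402), and within the slides it was 0.58, -0.92 and 0.54 on slides 1, 2 and 3. Signals of the 10 spots on 1 array varied with an SD of at most 0.49.

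Il34 encodes the second ligand of the CSF1 receptor, known in mice for its role in Langerhans cells and microglia. Its values at chr8:113265835-113265894 (mm9, minus strand) were -0.21, -1.37, 0.39, -0.29 and -2.24 in tumor samples, against 0.60, 1.12, 0.21, -2.10 and -0.54 in normal samples. Both groups spread over more than 2 log2 units and overlapped throughout. The difference was -0.60 (SE 0.65, 95% interval -2.03 to 0.83, adjusted p = 0.729). It was -0.23 without tumor replicate 5 and -1.09 without normal replicate 5.

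Csf2, which encodes GM-CSF, was not well above background on any of the 12 arrays although its probe at chr11:54060772-54060799 (mm9, minus strand) was spotted 10 times. Its processed signal was 24.4 to 25.7 on tumor arrays and 24.2 to 25.2 on normal arrays. The lowest signal of any probe well above background was 100.5 to 106.7 on tumor arrays and 88.3 to 107.3 on normal arrays. A signal this flat has no measured difference, and the relative values drawn for Csf2 follow the brightness of each array. No fold is given, and an mRNA level under this limit was not detectable.

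Csf1r encodes the receptor for both M-CSF and IL-34 and is a standard marker of macrophages. Its 3 probes were well above background on all 12 arrays. With the main probe the tumor samples had 6.09, 6.33, 5.69, 6.08 and 6.28, against 6.53, 6.38, 6.55, 6.83 and 5.96 in the normal samples. Of the 5 normal samples 4 were above every tumor sample, while normal replicate 6 was among the lowest. The difference was -0.36 (SE 0.23, 95% interval -0.86 to 0.15, adjusted p = 0.544). The other probes of Csf1r had differences of -0.39 (95% interval -0.87 to 0.09) and -0.24 (95% interval -0.71 to 0.23). With the main probe the sign was negative within each slide, at -0.28, -0.57 and -0.19.

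Flt3 encodes the receptor for FLT3 ligand, a kinase of progenitors and dendritic cells. At its main probe, chr5:148178496-148178555 (mm9, minus strand), tumor samples had 1.57, -1.13, -1.16, 0.86 and 1.45, against 0.11, -1.02, -2.15, -1.04 and -0.12 in normal samples. The tumor samples fell into 3 high values, above every normal sample, and 2 low values inside the normal range. The difference was 1.16 (SE 0.65, 95% interval -0.27 to 2.59, adjusted p = 0.486).

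A second probe for Flt3, at chr5:148142576-148142635, gave 1.24, -1.35, -0.24, 0.61 and 1.23 in tumor samples, against -0.65, -2.35, -3.97, -0.73 and -0.07 in normal samples. All 6 tumor arrays had it well above background, as did 3 of 6 normal arrays, and the same 3 tumor samples were above every normal sample. Its difference was 1.85 (SE 0.76, unadjusted p = 0.0341, adjusted p = 0.345 over all probes). The third Flt3 probe was well above background on 3 tumor arrays and on 0 normal arrays, and no fold is given for it. Dendritic cell markers summed to 176, 124, 55.5, 142 and 139 in tumor samples, against 83, 139, 82.3, 112 and 78.8 in normal samples. Of the 12 dendritic genes 10 were tested and 0 passed, with 4 at an unadjusted p under 0.05 and a median difference of 0.90. The sum leans on bright genes, such as Siglech (mean 5.66 in tumor, 5.90 in normal samples) and Fscn1 (5.16 and 3.42). Xcr1 was well above background on 0 tumor arrays and 1 normal array and Clec9a on 2 and 1, and neither was tested. The part of dendritic cells in the Flt3 values was not tested.

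Kit encodes the receptor for stem cell factor and is abundant on mast cells and blood progenitors. Its probe at chr5:76052394-76052453 (mm9, plus strand) stood well above background in 5 of 6 tumor arrays and in 1 of 6 normal arrays. Tumor samples had -1.14, -5.49, -2.72, -2.31 and -0.43, against -3.46, -4.27, -5.43, -4.41 and -2.57 in normal samples. Processed Kit signals were 213 to 936 on the 5 detected tumor arrays and 264 on the detected normal array, that of replicate 6. The signal was 24.3 on the array of tumor replicate 2 and 20.8 to 78.7 on the other 5 normal arrays. Those arrays give no measured level, and their relative values follow the brightness of the array. The fitted difference, 1.61 (SE 0.87, 95% interval -0.31 to 3.53, adjusted p = 0.472), rests in part on them. It was 0.52 with normexp background correction, 0.50 on slide 1 alone and 2.38 without tumor replicate 2, and passed the threshold in none of the alternatives where Kit was tested. Of 10 mast cell and basophil genes, Cpa3, Tpsab1, Fcer1a, Ms4a2 and Gata2 were not well above background on any array. Tpsb2 and Hdc were so on all 6 tumor and all 6 normal arrays, and Cma1 on 5 tumor and 3 normal arrays. Mcpt4 was so on 1 tumor and 1 normal array, and Mcpt8 on 2 tumor arrays and 0 normal arrays. The difference of Hdc was 1.22 (SE 0.47, adjusted p = 0.312 in limma). Markers of mast cells and basophils summed to 1.56 to 4.19 in tumor samples and 1.59 to 2.34 in normal samples.

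Csf2ra encodes the alpha chain that binds GM-CSF. At chr19:61300336-61300395 (mm9, minus strand) the tumor samples had 4.44, 4.42, 3.87, 3.80 and 4.36, against 4.02, 2.92, 4.39, 3.82 and 3.94 in the normal samples. Apart from normal replicates 2 and 3, the lowest, the values of both groups covered the same range. The difference was 0.36 (SE 0.29, 95% interval -0.29 to 1.01, adjusted p = 0.634), and it was 0.14 without normal replicates 2 and 3 (adjusted p = 0.866).

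Csf2rb and Csf2rb2 are near-identical neighbours on chromosome 15, so the probe sequences were compared before their values were read. The main probe of Csf2rb lies at chr15:78181168-78181227 (plus strand) and that of Csf2rb2 at chr15:78113126-78113185 (minus strand), both mm9. Their most alike stretches, shown because each probe could take up transcripts of the other gene, match at 27 of 30 bases. Capitals mark the bases that differ, read 5′ to 3′ as on the array:
Csf2rb probe, bases 30 to 59: ggcagatcaaAtgtCccttggtctCtgttc
Csf2rb2 probe, bases 12 to 41: ggcagatcaaGtgtTccttggtctAtgttc
In every other pair of a Csf2rb probe with a Csf2rb2 probe, the best stretch of 30 bases matched at 14 or 15 bases. The transcripts themselves were not analysed here, so the main probes of this pair are uncertain as to gene, and the second probe of each gene is given beside them.

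The main probe of Csf2rb gave 4.53, 4.42, 3.62, 3.84 and 4.53 in tumor samples, against 3.11, 2.37, 2.55, 2.23 and 3.16 in normal samples. Every tumor sample was above every normal sample, and the gap between the groups was that between tumor replicate 3 and normal replicate 6. Means were 4.19 ± 0.43 in tumor samples and 2.68 ± 0.43 in normal samples (SD, n = 5 each). The difference of Csf2rb was 1.51 (SE 0.29, 95% interval 0.88 to 2.14, adjusted p = 0.0404), and it was 1.74, 1.26 and 1.5 within slides 1, 2 and 3. The second probe of Csf2rb, at chr15:78179504-78179563, gave 4.98, 4.76, 3.93, 4.18 and 4.46 in tumor samples, against 3.27, 1.14, 2.13, 2.51 and 3.18 in normal samples. Its groups did not overlap either, with a difference of 2.01 (SE 0.41, 95% interval 1.11 to 2.92, adjusted p = 0.0542 over all probes).

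The call of Csf2rb rests on its main probe, which is uncertain as to gene, and lies close to the threshold. Its adjusted p was 0.0549 without normal replicate 1, 0.0763 without normal replicates 2 and 3, 0.0976 without normal replicate 4 and 0.117 without normal replicate 5. It was 0.113 without tumor replicate 1, 0.122 without tumor replicate 2, 0.0526 without tumor replicates 4 and 6 and 0.0924 without tumor replicate 5. Below the threshold it stood without tumor replicate 3 (0.0424) and without normal replicate 6 (0.0324). The difference itself was 1.39 to 1.65 in these 10 fits. The adjusted p of Csf2rb was 0.0639 with no filter on dim probes, where more genes were tested. Over all 26 alternatives the difference lay between 1.26 and 2.08, and 14 of them passed.

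The main probe of Csf2rb2, the mouse IL-3 receptor beta chain, gave 4.05, 4.09, 2.58, 3.24 and 3.60 in tumor samples, against 1.92, 2.24, 2.52, 1.86 and 2.66 in normal samples. Tumor replicate 3 fell inside the normal range and the other 4 tumor samples lay above it. The difference was 1.27 (SE 0.32, 95% interval 0.56 to 1.98, unadjusted p = 0.00243, adjusted p = 0.122). Its second probe, at chr15:78114097-78114156, gave 2.30, 2.19, 1.42, 2.01 and 1.78 in tumor samples, against 0.80, -1.04, -0.13, -0.29 and 0.67 in normal samples. Every tumor sample was above every normal sample on this probe, which has no close match among the Csf2rb probes. Its difference was 1.94 (SE 0.36, 95% interval 1.14 to 2.73, adjusted p = 0.0386 over all probes, of which 0.838% passed and 0.374% passed as higher). With the mean over both probes of Csf2rb2 as the gene's value the difference was 1.60 (adjusted p = 0.0345). The 4 probes of the pair thus had differences of 1.27 to 2.01, and 2 of the 15 kept probes of the family passed, 1 in each beta chain gene.

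**Figure D2:**
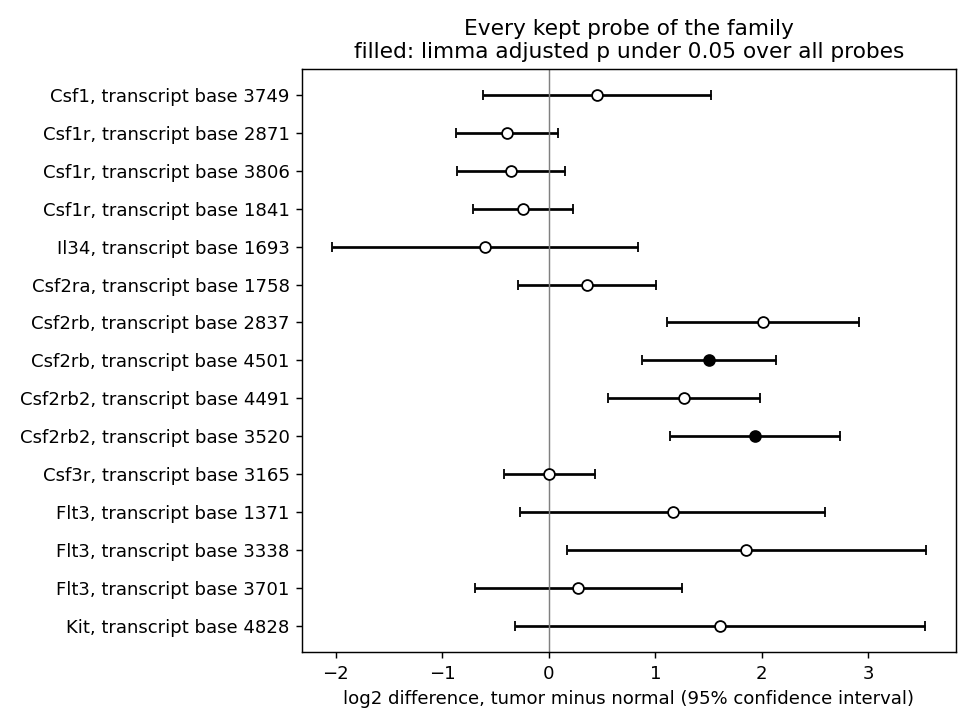
Log2 difference, tumor minus normal, with its 95% confidence interval for each of the 15 kept probes, named by gene and by the transcript base at which the array annotation starts the probe. Filled points passed an adjusted p of 0.05 in limma over all probes, and the 4 probes of Csf2rb and Csf2rb2 have intervals above 0, as has 1 of the 3 Flt3 probes.

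Set against other members within the same sample, where the scaling of the array cancels, Csf2rb minus Csf2ra was -0.25 to 0.17 in tumor samples and -1.84 to -0.55 in normal samples. The groups did not overlap, and their means were 1.14 log2 units apart. Csf2rb minus Csf1r was -2.24 to -1.56 in tumor samples and -4.61 to -2.80 in normal samples, again without overlap and with means 1.86 apart. Csf2ra minus Csf1r was -2.28 to -1.66 in tumor samples and -3.46 to -2.02 in normal samples, where the groups overlapped and the means were 0.72 apart. Csf2rb2 minus Csf2rb overlapped, with means of -0.68 ± 0.30 in tumor samples and -0.44 ± 0.46 in normal samples (SD, n = 5 each). Every pair was read from the main probes of its genes. Those of Csf2rb and Csf2rb2 are uncertain as to gene, so Csf2rb2 minus Csf2rb cannot show whether the beta chain genes moved together. These pairs were chosen with the levels known, so no test is given for them.

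**Figure D3:**
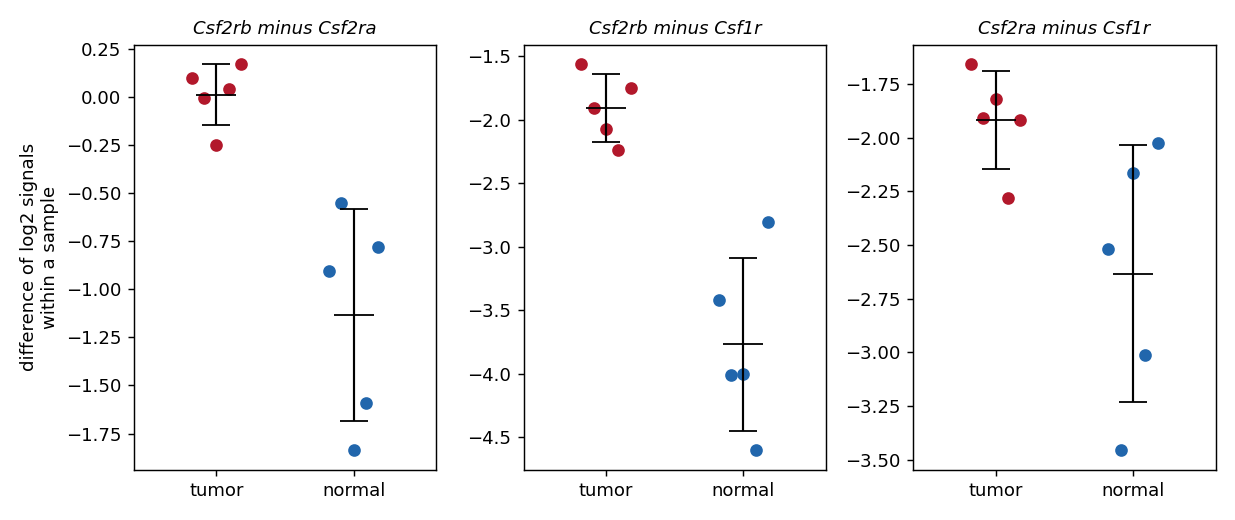
Difference of the log2 signals of a pair of genes within each sample (vertical axis), 5 tumor samples in red and 5 normal samples in blue, with mean and SD. Tumor samples lie above normal samples without overlap for Csf2rb minus Csf2ra and Csf2rb minus Csf1r, and overlap them for Csf2ra minus Csf1r.

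Other myeloid cells also carry the beta chain, so their markers are given beside it. Neutrophil markers summed to 12.1, 13.6, 5.75, 3.63 and 1.36 in tumor samples, against 3.18, 3.30, 1.55, 4.02 and 2.59 in normal samples. Of 12 neutrophil genes 10 were tested and 1 passed, Retnlg, a resistin-like secreted protein (difference 4.34, SE 0.78, adjusted p = 0.0341). Retnlg was well above background on 6 tumor arrays and 2 normal arrays, so its fitted difference rests on normal values mostly below background. Elane was not well above background on any array. At an unadjusted p under 0.05 stood 5 of the 10, with 4 higher and 1 lower in tumor samples, and the median difference was 1.37. The parts of neutrophils, of dendritic cells and of the acinar signal in the differences of Csf2rb and Csf2rb2 were not tested.

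The remaining lists of other cells had 0 calls among their tested genes. Their summed signals in tumor samples, with those in normal samples after, were 1.67 to 4.46 and 1.30 to 8.63 for blood stem and progenitor cells, 7.55 to 18.5 and 9.84 to 16.3 for T and NK cells, and 3.86 to 7.23 and 5.02 to 9.15 for B cells. Fibroblast and stellate genes summed to 36.2 to 76.7 in tumor samples and 33.8 to 143 in normal samples, and ductal and tumor epithelial genes to 14.7 to 32 in tumor samples and 13.3 to 76.4 in normal samples. For endothelial genes the sums were 4.58 to 6.4 in tumor samples and 4.73 to 14.5 in normal samples. At an unadjusted p under 0.05 stood 1 of 7 endothelial genes, 1 of 3 mast cell genes and 0 genes of the other 5 lists of this paragraph.

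Csf3r encodes the G-CSF receptor, best known from neutrophils. Its only probe lies at chr4:125721478-125721537 (mm9, plus strand) and is the one member probe of 18 that shares a run of 20 bases with probes of other genes. The run, in capitals, stands in 3 of them, and 2.27% of all probes share such a run with as many. It resembles the B1 short interspersed repeat of mouse, from general knowledge and not from a repeat annotation:
Csf3r probe, bases 31 to 60: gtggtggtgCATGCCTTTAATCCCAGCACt
Tumor samples had 4.21, 4.27, 4.26, 4.50 and 4.42 for Csf3r, against 4.00, 4.51, 4.46, 4.49 and 4.17 in normal samples. The 10 values lay between 4.00 and 4.51, while the neutrophil sums of the same tumor samples ran over 1.36 to 13.6. The difference was 0.01 (SE 0.19, 95% interval -0.42 to 0.43, adjusted p = 0.995), and its sign turned under 6 of 26 alternatives. The 10 other probes that share a run of 16 bases with it had a median Pearson correlation of 0.426 with its signal (-0.221 to 0.672). Over all kept probes the median was -0.017 and the upper quartile 0.267. The part of the shared run in the signal was not tested. What share of this signal comes from Csf3r transcripts cannot be told from the probe.

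For each member the 3 genes with the highest Pearson correlation over the 10 samples were looked up among all genes tested, as a description. Being the best of many, such values are high for any gene, and the samples share slides and the group difference. Nearest to Csf2rb were Ccl17, a chemokine that attracts T cells (r = 0.982), Adam8, a membrane protease (r = 0.980), and AA467197 (r = 0.976). With the group means removed their correlations were 0.941, 0.938 and 0.875. Csf2rb2 was nearest to Nrg1 (r = 0.950), Hpcal1 and Def6, and Csf2ra to the phosphatase gene Ptpn2 (r = 0.982), Rassf5 and Scimp. For Csf1r the nearest was the AP-1 gene Jund (r = 0.941), before Slitrk3 and Rasa2.

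The ligands were nearest to Arap2, H1f2 and Rnf43 for Csf1 (r = 0.889 to 0.907) and to Pik3r2, Fam193a and Kif9 for Il34 (r = 0.913 to 0.941). Flt3 was nearest to Adam23 (r = 0.933), Usp3 and the MHC class II gene H2-Eb2, and Kit to Srsf10 (r = 0.963), Usp3 and Rrad.

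The genes nearest to Csf3r were Aoc2 (r = 0.967), Zfp658 (r = 0.953) and Lrrc31 (r = 0.937). The first 2 of these probes resemble each other, at 27 of 30 bases, and are shown for that reason. Capitals mark the bases alike with the Aoc2 probe, and the longest run either shares with the Csf3r probe is 6 bases:
Aoc2 probe, bases 3 to 32: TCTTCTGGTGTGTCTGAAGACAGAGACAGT
Zfp658 probe, bases 1 to 30: TCTTCTGGTGTGTCTGAAagCAGcGACAGT

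The gene lists from here on were chosen with earlier results of these data known. Their counts beside the shares of all genes are therefore description and not a test. Among ligands and receptor genes beside the family, 6 of 9 were tested and 0 passed in limma, with 1 at an unadjusted p under 0.05. That gene was Kitl, which encodes the ligand of Kit, with means of 0.28 ± 0.64 in tumor samples and 1.34 ± 0.26 in normal samples (SD, n = 5 each). Its difference was -1.06 (SE 0.31, adjusted p = 0.184), and every tumor sample was below every normal sample, as for 1.59% of all genes. Il5ra, the alpha chain of the IL-5 receptor, was well above background on 5 tumor arrays and 2 normal arrays. Its fitted difference of 0.82 (SE 0.57, adjusted p = 0.578) rests in part on values below background. It was 0.04 with normexp background correction and 2.51 on slide 2 alone.

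Of 29 genes of receptor signalling and its brakes 27 were tested, 1 passed and was higher, against 0.341% of all genes. A difference above 0 was seen for 23 of 27, against 49.6% of all genes, with a median of 0.44 in the list and -0.005 over all genes. At an unadjusted p under 0.05 stood 7 of 27, all 7 higher, against 12.9% of all genes in either direction. Fgr, a Src-family kinase of myeloid cells, had means of -0.09 ± 0.50 in tumor samples and -1.84 ± 0.61 in normal samples (SD, n = 5 each), a difference of 1.75 (SE 0.35, adjusted p = 0.0484). Cish, a STAT5 target that restrains cytokine receptors, stood at 0.58 ± 1.1 in tumor samples and -2.05 ± 1.16 in normal samples (SD, n = 5 each), with a difference of 2.63 (SE 0.64, adjusted p = 0.105). The groups did not overlap for either gene. All 6 tumor arrays had both well above background, while 4 normal arrays had Fgr and 5 had Cish so. The sizes of both differences thus rest in part on normal values near or below background. With normexp background correction the difference was 1.025 for Fgr and 1.72 for Cish. On slide 2 alone Cish had 1.03. The call of Fgr ended when single samples were left out, at an adjusted p of 0.0900, 0.0746, 0.109 and 0.125 without normal replicates 1, 2 and 3 (averaged), 4 and 5. It was 0.113, 0.139, 0.0835 and 0.102 without tumor replicates 1, 2, 3 and 5, 0.0552 with scaling on macrophage identity genes and 0.0687 with no filter on dim probes.

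From the 13 genes known to respond to GM-CSF in myeloid cells, 12 were tested, 1 passed and was higher, against 0.341% of all genes. A difference above 0 was seen for 9 of the 12, against 49.6% of all genes. The median was 0.75 in the list and -0.005 over all genes. An unadjusted p under 0.05 was seen for 9 of the 12, of which 7 were higher and 2 lower, against 12.9% of all genes. Ccl17 had means of 4.47 ± 1.16 in tumor samples and 1.03 ± 1.22 in normal samples (SD, n = 5 each), a difference of 3.44 or 10.9-fold (SE 0.67, adjusted p = 0.0450). Its call, like that of Fgr, ended without any of 8 samples. The adjusted p of Ccl17 was 0.0508, 0.0819, 0.102 and 0.124 without normal replicates 1, 2 and 3 (averaged), 4 and 5. It was 0.113, 0.127, 0.0653 and 0.0984 without tumor replicates 1, 2, 4 and 6 (averaged), and 5, and 0.0502 with no filter on dim probes. Cish, described above, is also in this list. The 2 genes on the lower side, named after their values were seen, were the chemokine gene Ccl24 (difference -1.63, SE 0.59, adjusted p = 0.275) and the fatty acid binding protein gene Fabp4 (difference -2.21, SE 0.90, adjusted p = 0.331).

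Of 14 genes known to depend on or respond to M-CSF all were tested and 1 passed and was lower, against 0.512% of all genes. A difference above 0 was seen for 3 of 14, against 49.6% of all genes, and the median was -0.58. At an unadjusted p under 0.05 stood 5 of 14, all 5 lower, against 12.9% of all genes. Igf1, a growth factor that tissue macrophages secrete, had means of -1.11 ± 0.21 in tumor samples and 1.11 ± 0.41 in normal samples (SD, n = 5 each), a difference of -2.21 (SE 0.24, adjusted p = 0.00437). Timd4, a phosphatidylserine receptor of resident macrophages, was well above background on 1 tumor array and 4 normal arrays. Its fitted difference of -3.75 (SE 0.85, adjusted p = 0.0814) rests on tumor values mostly below background. It was -1.80 with normexp background correction (adjusted p = 0.0144) and -4.38 without normal replicates 2 and 3 (adjusted p = 0.0312). The 12 transcription factors of macrophages that depend on CSF1 were all tested and 0 passed, with 3 at an unadjusted p under 0.05 and a median of 0.19. Smallest in p among them were Maf, a factor of resident macrophages (difference -0.99, SE 0.27, adjusted p = 0.144), and Egr2 (difference 0.70, SE 0.31, adjusted p = 0.369).

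**Figure D4:**
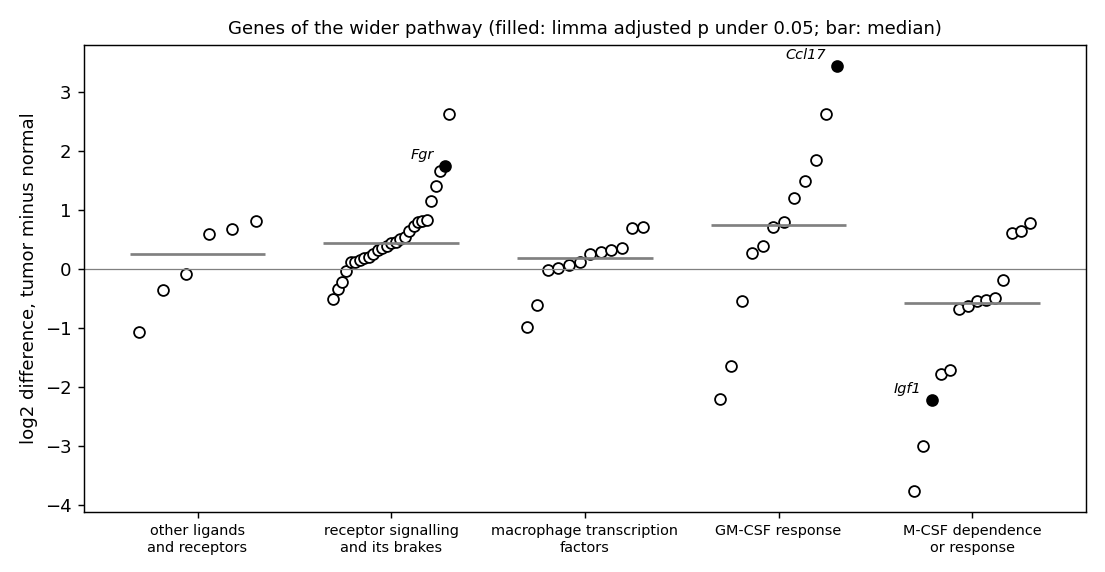
Log2 difference, tumor minus normal (vertical axis), for each tested gene of 5 lists of the wider pathway, with the list's median as a grey bar. Filled points passed an adjusted p of 0.05 in limma over all genes: Fgr and Ccl17 higher and Igf1 lower in tumor samples.

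**Figure D5:**
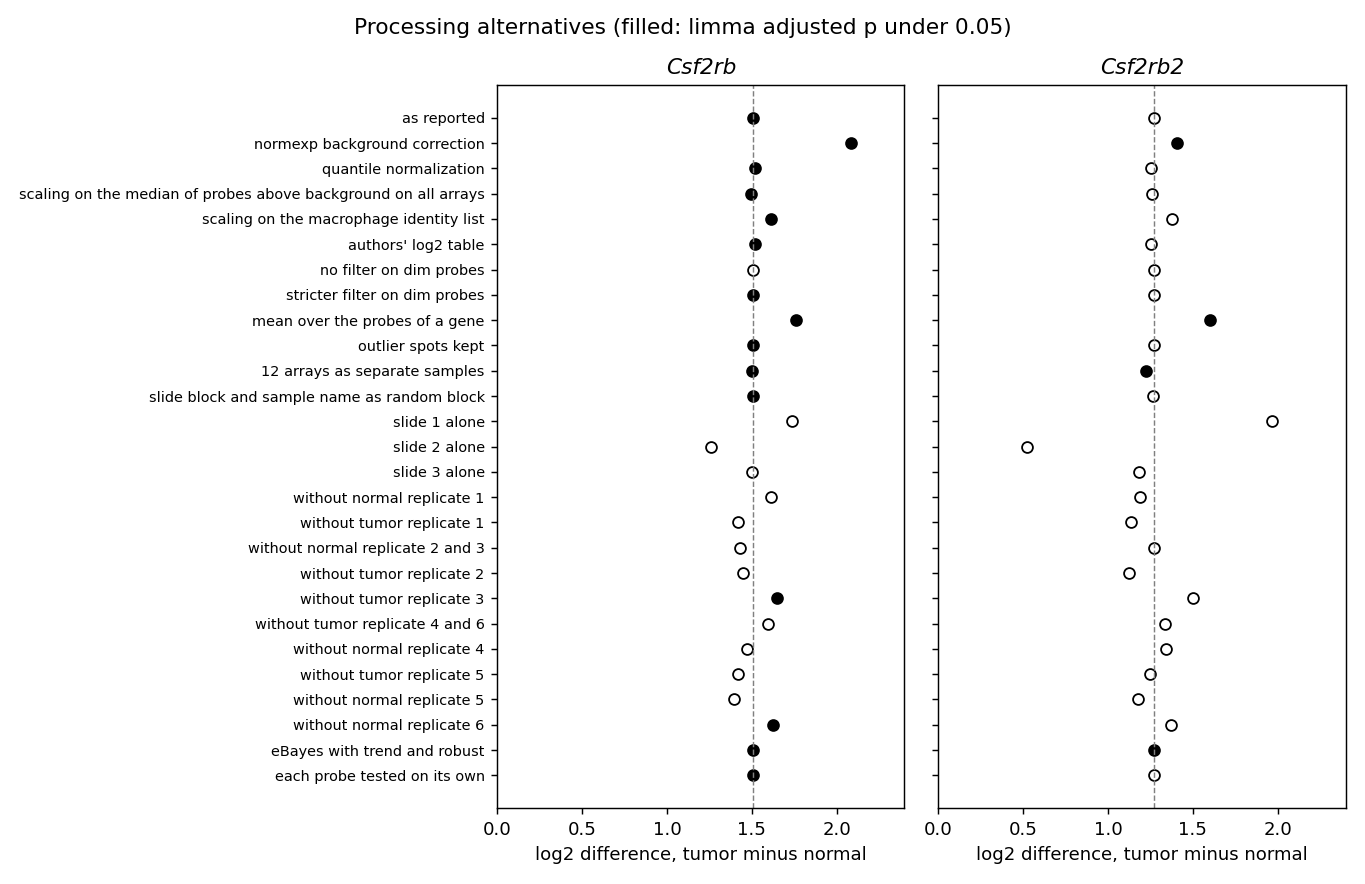
Log2 difference, tumor minus normal, of Csf2rb and Csf2rb2 as reported and under 26 alternatives (1 per line), with the reported value as a dashed line and filled points where the adjusted p was under 0.05. Csf2rb stayed between 1.26 and 2.08 and Csf2rb2 between 0.52 and 1.97.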

How the data were processed

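Per the labels' protocols, sorted cells were lysed directly, and their cDNA was amplified before Cy5 labelling, so a fold is one of amplified signal. Per the file headers and the submitters' processing notes, arrays were read with Agilent Feature Extraction 11.5.1.1. The intensity values the authors deposited include a processed signal, already background-subtracted. The authors also deposited a log2 table, which equalled quantile-normalized log2 processed signals (median absolute difference 0.000157, lowest correlation 0.9999, column median 7.08).

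Of 43020 spots that were not controls, 0.401% carried outlier flags and were left out, and 0 were saturated. Log2 processed signals were averaged over the spots of a probe, and each array's 75th percentile was subtracted. Probes were named by accession (28025), symbol (3413), synonym (295) or the file (4985) through a gene table of GRCm38.p6, used for names only, and 2711 had no name. The brightest kept probe of a gene, on average over the 12 arrays, stood for it. The comparison used lmFit and eBayes of limma 3.58.1 (R 4.3.3, two-sided, Benjamini-Hochberg), a method tested on simulated data. There it called 7 of 50 genes with a true log2 difference of 1 and 33 of 50 with one of 2. A gene that did not pass is therefore not shown to be unchanged. Probe positions come from the scanner files' mm9 annotation, where exons are not given. The number of arrays limits the precision.

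Each of 3 separately scanned slides held 2 tumor and 2 normal arrays. Arrays of 1 sample name correlated at 0.989 to 0.992, others of 1 group at 0.854 to 0.933, and arrays of different groups at 0.842 to 0.932. The members and lists were chosen with earlier results of these data known. All members were named, and from each pathway list the genes past the threshold and the 2 with the smallest p. Marker sums are sums of signals relative to the 75th percentile. Alternatives covered background correction, scaling, the dim-probe filter, the probe choice, outlier spots, slides, samples left out, the variance model and the threshold.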

Additional observations from a re-analysis of the deposited data

Results flagged for a closer look

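A second probe set of Csf1, for the transcript NM_001113530, lies outside the comparison because its probes did not pass the filter on dim probes. One of them, at chr3:107548550-107548609 (mm9), stood well above background on the array of tumor replicate 1 alone, at -3.23, and on 0 of the 6 normal arrays, where it has no measured level. On the array of tumor replicate 2 it had -3.51, where the lowest value well above background was -3.44. That lowest value was -3.11, -1.93, -2.08 and -3.21 on the arrays of normal replicates 1, 2, 3 and 5, each above -3.23. A level of -3.23 would not have been called there. The other probe for this transcript was not well above background on any array. The cause was not tested.

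Among 18 groups of 5 sample values, 1 for each tested member and group with its main probe, 0 had a value whose gap to its neighbour passed Dixon's 95% limit of 0.71 of the range.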

How the results depend on the processing

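The difference of Csf2rb was above 0 in all 26 alternatives and passed in 14. The family had 2 calls, Csf2rb and Csf2rb2, with normexp background correction, with the mean over the probes of a gene, with 12 arrays as separate samples and with a trended, robust variance model. It had 0 calls without the dim-probe filter (2 of 10 at an unadjusted p under 0.05 in limma), within slides 1, 2 and 3 (3, 2 and 3 of 9) and at an adjusted p under 0.01. Leaving out 1 sample at a time gave 0 to 1 calls. Over all genes, 140 calls became 459 with 12 separate arrays, 234 with the trended, robust model, 267 at an adjusted p under 0.10, 43 under 0.01 and 0 within each slide (1590, 1565 and 958 at an unadjusted p under 0.05), and 59 to 196 when 1 sample was left out. Within a slide 2 arrays a group remain.

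Csf1 had a difference of -0.92 on slide 2. Csf3r, near 0, was -0.006 when scaled on the median of bright probes and -0.19 on slide 2. Without 1 sample it ranged from -0.077 (normal replicate 1) to 0.052 (normal replicates 2 and 3), with 0.046 without normal replicate 5, -0.034 without normal replicate 6, -0.037 without tumor replicates 4 and 6 and -0.016 without tumor replicate 5. The causes were not tested. Scaling on macrophage identity genes moved the median of all genes to 0.10 and left Csf2rb at 1.62 (adjusted p = 0.0491). No paired analysis was possible because the replicate numbers only name samples in accession order. With slide as a block and sample name as a random block, 153 genes passed and Csf2rb was 1.51 (adjusted p = 0.0380).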
